A study of Rattus norvegicus with 46 samples.

Results

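The respiratory chain genes of rat supraspinatus tendon and subacromial bursa were followed through tendon injury, with members encoded in the nucleus set beside those encoded in the mitochondrial genome. Members were taken by name from the symbols of the authors' deposited gene tables: subunits of complex I (Ndufa, Ndufb, Ndufc, Ndufs and Ndufv genes), complex II (Sdha to Sdhd), complex III (Uqcr genes), complex IV (Cox4 to Cox8 genes) and complex V (Atp5 genes), and the Mt-nd, Mt-cyb, Mt-co and Mt-atp genes. This gave 97 of 23747 symbols, 84 nuclear and 13 mitochondrial. Counts per library were available for 90 of them, all 13 mitochondrial and 77 nuclear (33 in complex I, 4 in II, 8 in III, 17 in IV and 15 in V). Ndufa4 and Ndufa4l2 carry complex I names and were placed in complex IV, where the Ndufa4 protein sits.

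The respiratory chain passes electrons from NADH and succinate to oxygen through complexes I to IV of the inner mitochondrial membrane, and complex V, the ATP synthase, uses the proton gradient that results to make ATP. Complex II is encoded by nuclear genes alone, while the others combine nuclear subunits with subunits read from the mitochondrial genome, so both genomes must be expressed for a working chain. Skeletal muscle, heart and brown fat are rich in these transcripts, and some subunits come in a form restricted to heart and skeletal muscle and another found in most tissues. Resting tendon is a tissue of few cells and low oxygen use.

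RNA was sequenced after poly(A) selection from 8 groups of rat libraries. Control tendon and control bursa (5 libraries each) came from rats with no operation. In the other groups the tendon of the supraspinatus, a rotator cuff muscle, was cut (tenotomy). Tendons with the bursa kept and tendons with the bursa taken out were collected at day 3 and at day 14, and the injured bursa was collected at the same days (6 libraries in each of these 6 groups). No strain, age or sex is used here, and all groups are whole dissected tissue. The series describes a comparison within rats, with tendons of both shoulders taken, but which libraries share a rat is not recorded in the labels, and p-values measure only the spread between these libraries. In whole tissue, fewer cells of a type and less RNA per cell cannot be told apart.

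Libraries held 12.4 to 22.6 M estimated counts (M, 1e+06), apart from 1 day-14 bursa at 69.9 M. Some libraries stood apart from their group. Control bursae 1 and 2 held 2615 to 5575 CPM (counts per 1e+06 counts, after scaling for library composition) of brown adipocyte markers (5 of 7 listed genes had counts), against 50.4 to 77.8 CPM in control bursae 3 to 5. Ucp1, the uncoupling protein that defines brown fat, was at 3881 and 1456 CPM in the first pair and at 5.70, 0 and 0 in the others. Day-3 tendon 1 with the bursa removed held 27755 CPM of muscle markers (14 of 24 listed genes had counts), against at most 8758 CPM in any day-3 tendon with the bursa intact. Muscle markers summed to 43831 to 70306 CPM in control tendon, and none was at 0 in any tendon library, while Ucp1 was at 0 in all 5 control tendons. Tendon cell markers (8 of 8 listed genes had counts) summed to 5895 to 18704 CPM in control tendon and 231 to 5550 CPM in control bursa. Synovial lining markers (3 of 4 listed genes had counts) summed to 97.0 to 1027 CPM in control bursa, below the 1818 to 3223 CPM of control tendon.

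The 150 bases before the transcription start are shown for 6 nuclear members on which the results below turn, from RefSeq (GRCr8). Sdha, the flavoprotein of complex II, stands for the members that fell together. Cox6a2 is the heart and muscle form of a complex IV subunit, and Cox8a is a widely expressed complex IV subunit. Atp5mc1, Atp5mc2 and Atp5mc3 encode the same mature c subunit of the ATP synthase ring from different genes. Capitals mark matches, on either strand, to the letters searched: the capitals of Sdha and Atp5mc2, with any base in the sixth place, for NRF1, CCGGAAG for ETS factors such as GABPA, TCAAGGTCA for estrogen-related receptors and AAGATGGCG for YY1. Matches of different motifs may overlap, as those of ETS and YY1 can at AAG.
Sdha, chr1:30764403-30764552, plus strand: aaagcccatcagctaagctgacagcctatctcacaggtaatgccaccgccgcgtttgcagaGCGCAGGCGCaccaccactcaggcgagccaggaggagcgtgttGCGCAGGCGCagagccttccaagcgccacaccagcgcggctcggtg
Cox6a2, chr1:192219717-192219866, minus strand: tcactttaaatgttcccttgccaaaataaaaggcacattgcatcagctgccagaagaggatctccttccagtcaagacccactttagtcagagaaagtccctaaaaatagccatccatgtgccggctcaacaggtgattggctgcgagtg
Cox8a, chr1:213833624-213833773, minus strand: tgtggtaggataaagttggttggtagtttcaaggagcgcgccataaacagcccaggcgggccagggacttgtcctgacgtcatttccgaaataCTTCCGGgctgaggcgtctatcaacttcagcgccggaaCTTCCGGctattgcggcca
Atp5mc1, chr10:81523346-81523495, minus strand: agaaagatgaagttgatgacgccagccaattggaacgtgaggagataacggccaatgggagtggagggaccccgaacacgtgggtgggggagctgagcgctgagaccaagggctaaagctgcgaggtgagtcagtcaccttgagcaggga
Atp5mc2, chr7:135678219-135678368, minus strand: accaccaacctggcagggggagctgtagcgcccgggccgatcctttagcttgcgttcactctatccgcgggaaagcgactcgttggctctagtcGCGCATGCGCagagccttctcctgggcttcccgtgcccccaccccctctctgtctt
Atp5mc3, chr3:79220665-79220814, minus strand: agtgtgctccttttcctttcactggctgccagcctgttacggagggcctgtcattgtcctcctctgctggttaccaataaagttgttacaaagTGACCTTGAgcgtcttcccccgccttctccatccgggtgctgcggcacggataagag

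Sdha held the NRF1 letters starting 89 and 46 bases before the start, Atp5mc2 held them at 56 bases, Cox8a held the ETS letters at 57 and 19 bases, and Atp5mc3 held the estrogen-related receptor letters at 57 bases. In Cox6a2 and Atp5mc1 these letters are not in the window shown. RefSeq windows of 300 bases, 250 before and 50 after the start, were found for 66 nuclear members. NRF1 letters were in 11 of them (16.7%) against 4.71% of 27457 windows of all genes, ETS letters in 19 (28.8%) against 9.22%, YY1 letters in 9 (13.6%) against 1.93%, and receptor letters in 2 (3.03%) against 0.412%. A match describes the sequence and is not shown to be bound. Members with NRF1 letters had a median log2 fold change of -1.49 in day-3 tendon with the bursa intact against control, and those without had -1.55. The corresponding medians were -1.48 and -1.58 for ETS, and -1.64 and -1.50 for YY1.

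Mitochondrial genome members made up 25.4, 24.7, 31.8, 36 and 36.5% of all counts in control tendons 1 to 5, a mean of 30.9% ± 5.62 (SD, n = 5). At day 3 with the bursa intact their share was 12.1% ± 2.17 (n = 6, range 9.43 to 15.6%), and at day 14 it was 8.89% ± 2.06 (7.22 to 12.1%). Neither range reaches the control values. With the bursa removed the shares were 15.7% ± 4.98 at day 3 and 10.5% ± 2.85 at day 14, and tendon 1 of the day-3 group, at 25.4%, lay inside the control range while the other 5 were at or below 15.5%.

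Nuclear members moved the same way in tendon. They held 1.38% ± 0.163 of counts in control tendon (1.60, 1.34, 1.23, 1.50 and 1.25%), 0.688% ± 0.0524 at day 3 and 0.563% ± 0.0788 at day 14 with the bursa intact, and 0.800% ± 0.166 and 0.624% ± 0.127 with the bursa removed. All 24 injured tendons were below the lowest control tendon. These shares are raw counts with no correction for transcript length, so the size of the nuclear share is not compared with that of the mitochondrial share.

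**Figure D1:**
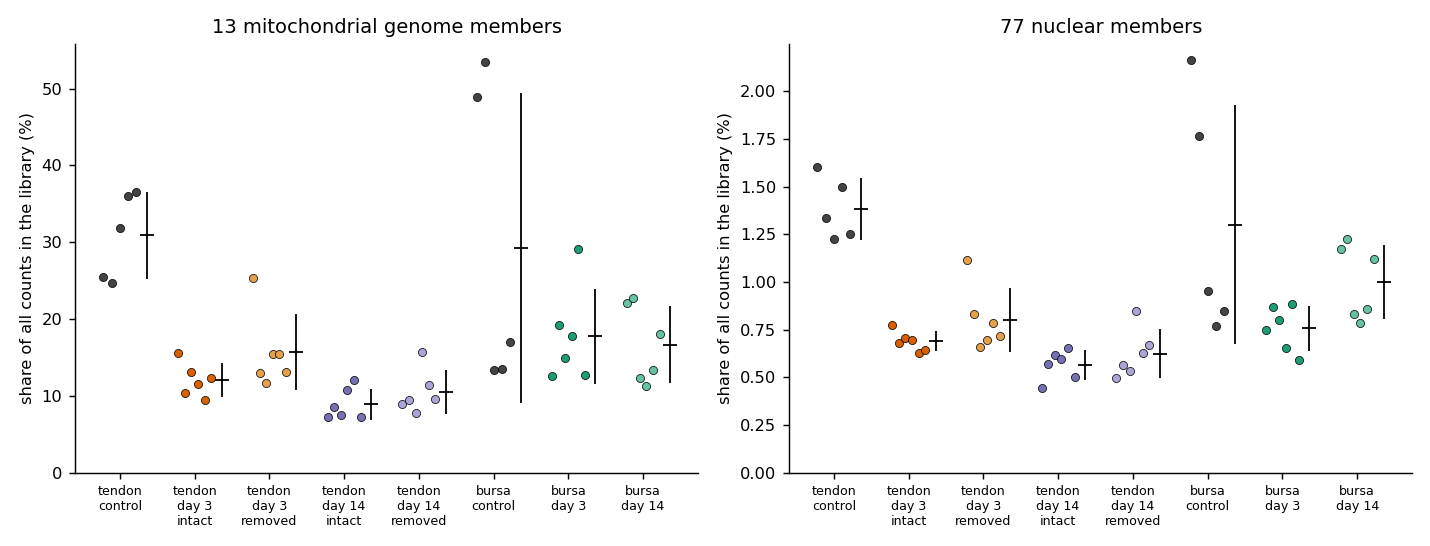
Share of all counts (percent) held by nuclear members and by mitochondrial genome members in each of the 46 libraries, by group. Points are libraries, and the dash with a vertical line beside them is the group mean with its SD. Injured tendons lie below control tendons, except for 1 day-3 tendon with the bursa removed in the mitochondrial share (25.4%), and the 5 control bursae split into 2 high and 3 low libraries.

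In tendon at day 3 with the bursa intact, nearly the whole chain was lower than in control tendon. Of 90 members tested, 86 fell and 2 rose (edgeR quasi-likelihood, Benjamini-Hochberg adjusted p under 0.05), while 32.3% of all 16942 features fell and 32.2% rose. The median log2 fold change was -1.55 over nuclear and -1.87 over mitochondrial genome members, beside -0.01 over all features. Of the 86 members that fell, 85 had all 6 injured libraries below all 5 control libraries (Ndufa4l2 overlapped). No share of all features without overlap is set beside this count. By complex, 33 of 33 nuclear members of complex I fell (median -1.49), 4 of 4 of complex II (-1.63), 8 of 8 of complex III (-1.63), 14 of 17 of complex IV (-1.59) and 14 of 15 of complex V (-1.50). The nuclear medians of the 5 complexes thus ran only from -1.49 to -1.63.

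Ndufs1, a catalytic iron-sulfur subunit of complex I, was at 372, 213, 232, 401 and 301 CPM in control tendons and between 79.8 and 94.7 CPM (median 87.9) in day-3 tendons with the bursa intact. The 2 groups do not overlap, and the log2 fold change was -1.80 (SE 0.18, adjusted p 2.4e-09, edgeR). Ndufs7, which carries the iron-sulfur cluster next to the quinone site, had the lowest change in complex I, at -2.40 (SE 0.23, edgeR adjusted p 7.8e-10).

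Sdha was at 425, 274, 326, 451 and 329 CPM in control tendons and at 109 to 124 CPM (median 115) at day 3 with the bursa intact. No injured library reached a control library, and the change was -1.67 (SE 0.15) on the log2 scale. Uqcrc1, a core subunit of complex III, went from 289, 193, 210.4, 306 and 211 CPM to 64.3 to 91.6 CPM (median 80.7), again without overlap. Cox4i1, the common form of complex IV subunit 4, went from 531, 443, 422, 583 and 434 CPM to 160.3 to 212 CPM (median 176). Its log2 change was -1.44 (SE 0.14), and that of Uqcrc1 was -1.64 (SE 0.15).

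Atp5f1b, the catalytic beta subunit of the ATP synthase, was at 2202, 1650.2, 1565, 2344 and 1949 CPM in control tendons and at 613 to 708 CPM (median 636) at day 3 with the bursa intact. The log2 change was -1.59 (SE 0.16), the same as for its alpha subunit Atp5f1a, at -1.59 (SE 0.16). Sdhb, the iron-sulfur subunit of complex II, changed by -1.62, Uqcrfs1, the Rieske protein, by -1.64, Cox5a by -1.87, Cox5b by -1.73 and Ndufv1, the NADH-binding subunit, by -1.42 in the same comparison, and all of them passed the test.

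All 13 mitochondrial genome members fell at day 3 with the bursa intact, from -1.68 (Mt-nd6) to -2.28 (Mt-nd2). The complex I members (Mt-nd1 to Mt-nd6) had a median of -2.04, Mt-cyb of complex III -1.94, the 3 complex IV members -1.78 and the 2 complex V members -1.76. Mt-co1, the catalytic subunit of complex IV, was at 82575, 74922, 99070.2, 133505 and 128209 CPM in control tendons and at 23836 to 39766 CPM (median 30138) at day 3. Mt-cyb was at 24874, 21940, 31985, 40349 and 41791 CPM in control tendons and at 7004 to 11529 CPM (median 8031) at day 3. Control tendons 3 to 5 were the higher ones for both genes. Mt-nd6 is read from the opposite strand to the other 12, and because use of strand in counting is not stated, its reads cannot be told apart from antisense RNA of its neighbours.

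The balance of the 2 genomes was compared within each library. The mean log2 CPM of the 13 minus that of the 77 nuclear members was 6.45 ± 0.33 (SD, n = 5) in control tendon, 5.99 ± 0.19 at day 3 and 5.78 ± 0.21 at day 14 with the bursa intact. With the bursa removed it was 6.19 ± 0.22 at day 3 (5.87 to 6.49) and 5.90 ± 0.17 at day 14 (5.66 to 6.08), and both ranges overlapped the control range. The control range, 6.05 to 6.83, overlapped that at day 3 (5.77 to 6.19), and the highest day-14 tendon (6.05) lay level with the lowest control tendon. Both quantities are averages over members chosen with earlier results known, so no test is attached to them.

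**Figure D2:**
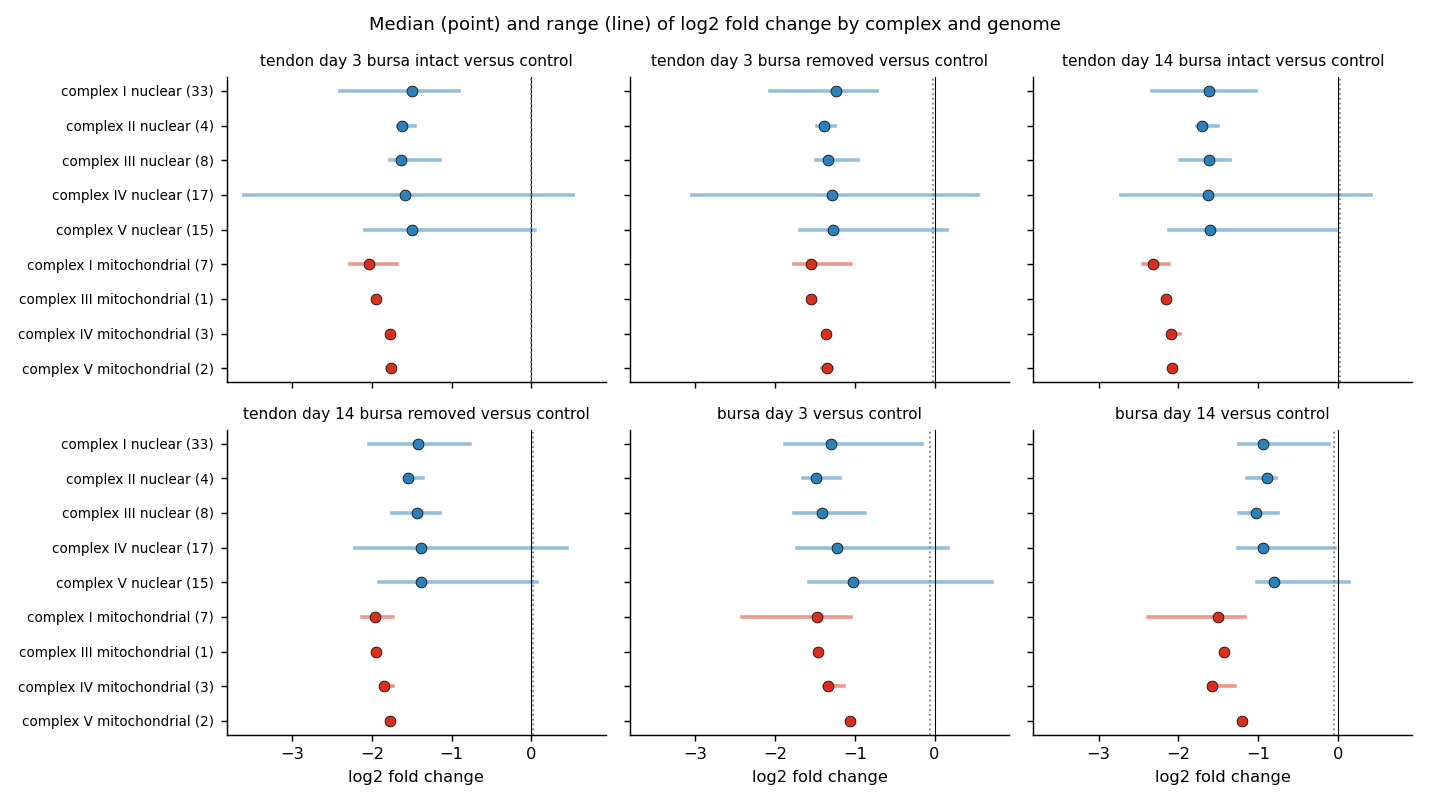
Log2 fold change of members against control, by complex and genome, for the injured groups of tendon and bursa. Points are medians over members, lines span the lowest to the highest member, and the dotted line is the median of all features tested. In tendon at day 3 with the bursa intact the nuclear medians run from -1.49 to -1.63 and the mitochondrial ones from -1.76 to -2.04, while at day 3 with the bursa removed the 2 sets overlap.

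Muscle markers moved with these changes. All 14 muscle markers tested fell in the day-3 tendon with the bursa intact, with a median of -3.38, and their sum went from 43831 to 70306 CPM in control tendon to 2875 to 8758 CPM. White adipocyte markers fell as well (5 of 5 tested), and macrophage markers rose (6 of 6 tested, median 2.24). When the mean log2 CPM of the muscle markers was added to the edgeR fit as a covariate, the number of members called at day 3 with the bursa intact went from 88 to 40, all lower, beside 9.64% of all features lower and 12% higher in that fit. The nuclear median became -0.50 and the mitochondrial one -0.68, and no mitochondrial genome member passed. Ndufs1 then changed by -0.76 (SE 0.24, adjusted p 0.021) and Atp5mc1 by -0.76 (SE 0.16, adjusted p 0.0010), while Mt-co1, at -0.54 (SE 0.30), did not pass. With the same covariate 78 of 90 members were called at day 14 with the bursa intact, all lower, beside 13.5% of all features lower and 14.5% higher. Among the 78 were 12 of the 13 mitochondrial genome members. The covariate was 10.9 to 11.6 in control tendon and 6.90 to 8.47 at day 3 with the bursa intact. Its highest value in any injured tendon was 10.2 (day-3 tendon 1 with the bursa removed). Each covariate fit of injured against control tendon thus carries a fitted slope across a gap. It draws no comparison at equal muscle levels.

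**Figure D3:**
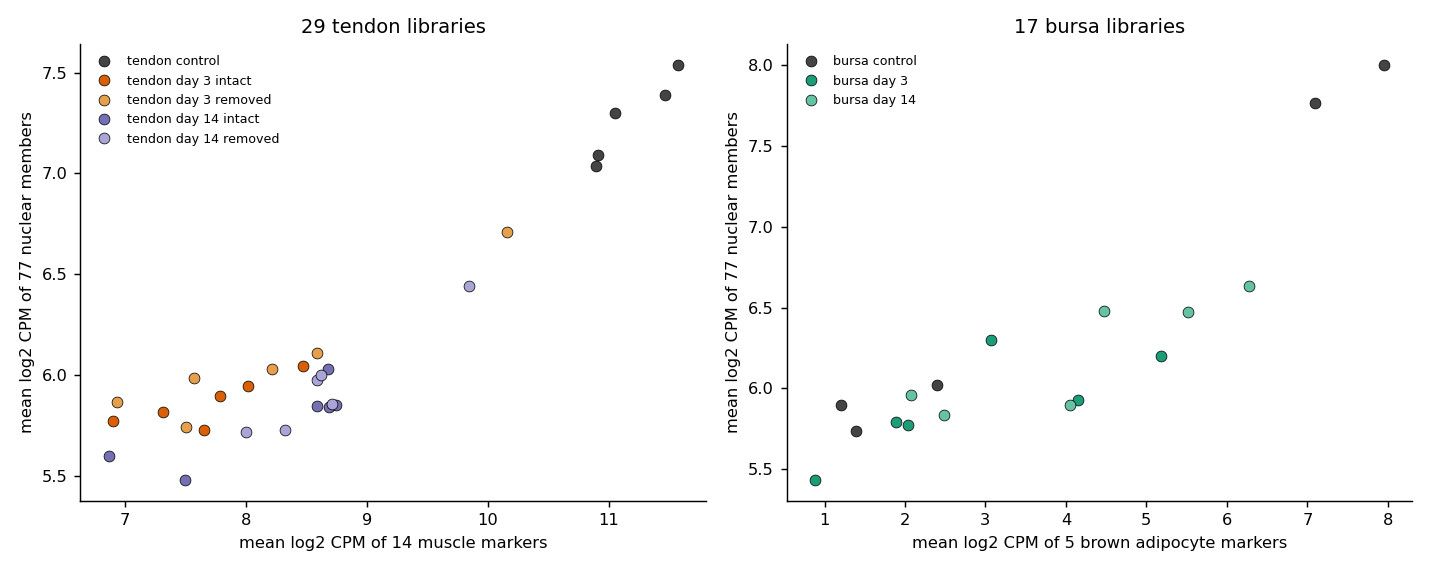
Mean log2 CPM of nuclear members against that of muscle markers in 29 tendon libraries (left) and against that of brown adipocyte markers in 17 bursa libraries (right). Each point is a library, coloured by group. The 5 control tendons lie highest on both axes, and control bursae 1 and 2 (nuclear means of 8.0 and 7.77) lie apart from the other 15 bursae.

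Of the 90 members, Cox6a1, Cox8a, Cox6b2 and Atp5if1 did not fall in day-3 tendon with the bursa intact. Cox6a2, the heart and muscle form, fell from 757, 574, 556, 888 and 658 CPM in control tendons to 59.8 to 165 CPM (median 103) at day 3 with the bursa intact, a log2 change of -2.75 (SE 0.43, adjusted p 2.8e-06, edgeR). Cox6a1, the form of most tissues, was at 89.7, 98.5, 94.1, 92.8 and 92.5 CPM in control tendons and at 129 to 145 CPM (median 135) at day 3. All 6 injured libraries were above all 5 control libraries, and Cox6a1 rose by 0.52 (SE 0.06, adjusted p 9.9e-08, edgeR).

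The log2 ratio of Cox6a2 to Cox6a1, uncorrected for transcript length, was 2.85 ± 0.31 (SD, n = 5) in control tendon and -0.46 ± 0.46 (n = 6) at day 3 with the bursa intact. It was 0.09 ± 1.09 at day 3 with the bursa removed, where tendon 1 reached 2.10, and -0.36 ± 0.84 and 0.07 ± 0.68 at day 14 with the bursa intact and removed. All 24 injured tendons lay below the lowest control tendon (2.54). Neither form passed with the muscle covariate at day 3 with the bursa intact: Cox6a2 was at 0.32 (SE 0.15) and Cox6a1 at 0.25 (SE 0.10, adjusted p 0.079).

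Cox7a1, another heart and muscle form of complex IV, had few counts, with 3.88, 2.95, 1.20, 1.91 and 2.16 CPM in control tendons and 0 to 0.526 CPM at day 3 with the bursa intact, and fell (log2 change -3.60, SE 0.69, adjusted p 5.4e-05, edgeR). Cox7a2, the other form of that subunit, is not listed in the gene tables. Cox8a rose slightly at day 3 with the bursa intact, from 59.8, 74.6, 63.6, 66.4 and 62.6 CPM to 70.0 to 85.9 CPM (median 77.5), by 0.23 (SE 0.07, adjusted p 0.0052, edgeR). Its ranges overlap, the call was lost without control tendon 1 (0.16, edgeR adjusted p 0.056), and at day 14 with the bursa intact it was at 56.7 to 72.6 CPM and did not pass (0.04, SE 0.07). Cox6b2, described mainly in testis, was at 0.33 (SE 0.25) at day 3 and did not pass (without control tendon 3 it did, at 0.62). Its common partner Cox6b1 fell by 1.16 on the log2 scale (SE 0.16). Cox6b2 had few counts, with an average log2 CPM of 0.98 in the tendon fit against 6.56 for Cox6b1.

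**Figure D4:**
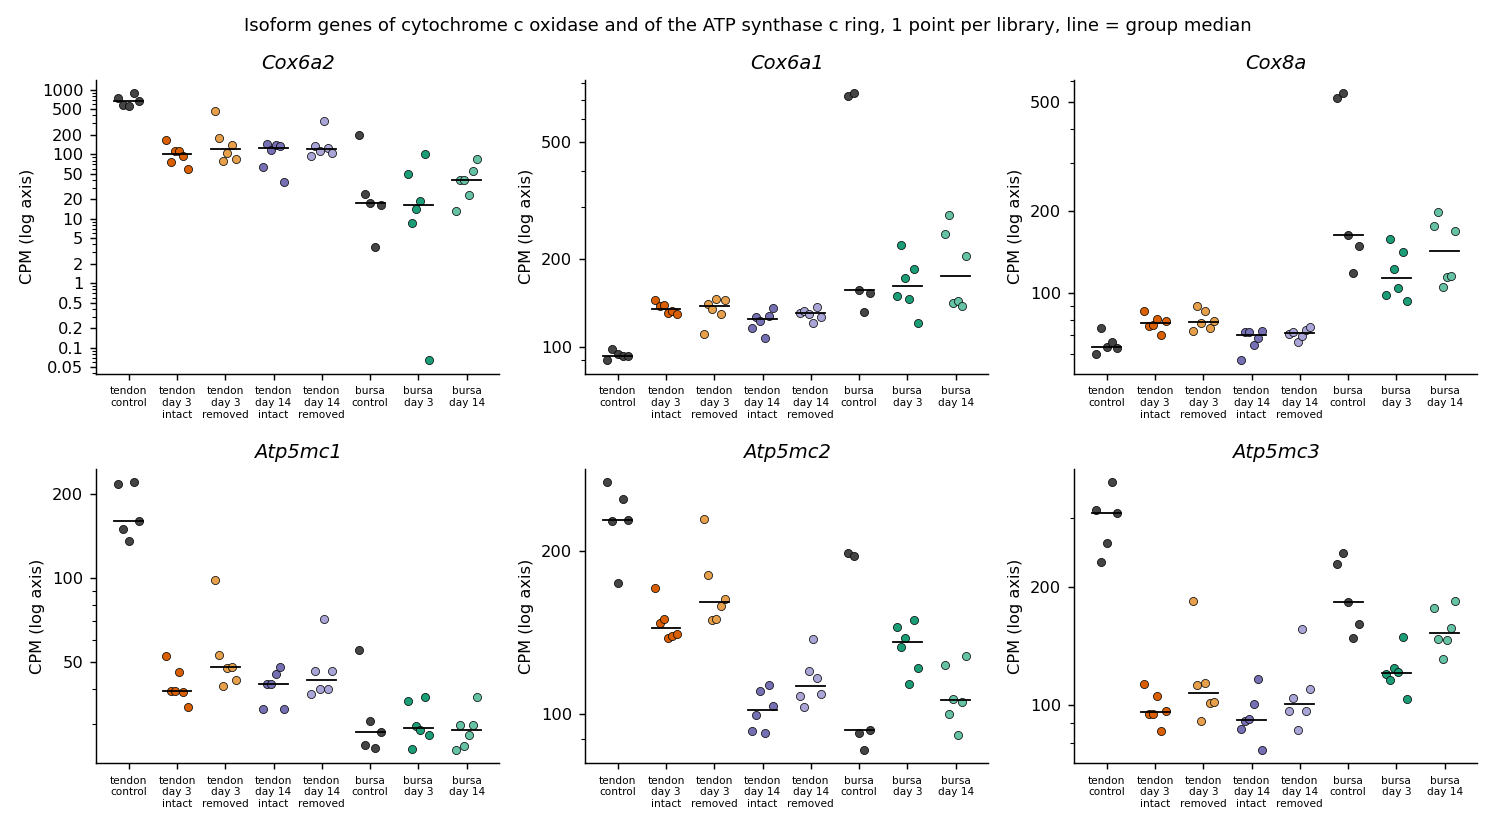
Expression (CPM, log axis) of Cox6a2, Cox6a1, Cox8a, Atp5mc1, Atp5mc2 and Atp5mc3 in every library, by group. Points are libraries and the horizontal line is the group median. In tendon Cox6a2 drops from a control median of 658 to a median of 103 at day 3 with the bursa intact while Cox6a1 rises from 92.8 to 135, and in bursa 2 control libraries stand high for Cox6a1 and Cox8a.

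The hypoxia-linked forms had smaller fitted changes than their partners at day 3 with the bursa intact. Cox4i2, the low-oxygen form of subunit 4, changed by -0.81 (SE 0.15) against -1.44 (SE 0.14) for Cox4i1, and Ndufa4l2 by -0.78 (SE 0.23) against -1.80 (SE 0.23) for Ndufa4. All 4 passed the test against control, and the difference between partners was not tested. Atp5if1, the small inhibitor of the ATP synthase, was at 77.4, 85.5, 76.9, 85.4 and 81.7 CPM in control tendons and at 77.9 to 87.8 CPM (median 86.2) at day 3, a change of 0.04 (SE 0.06) that did not pass. Cox7a2l, which helps to join complexes III and IV into supercomplexes, fell by 0.39 on the log2 scale (SE 0.08).

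The 3 genes of the c subunit, which share a mature protein and differ in their import sequences, fell by different amounts. Atp5mc1 went from 217, 149, 136, 219.8 and 160.4 CPM in control tendons to 34.7 to 52.8 CPM (median 39.4) at day 3 with the bursa intact, a log2 change of -2.09 (SE 0.20). Atp5mc3 went from 314, 232, 259, 369 and 309 CPM to 85.8 to 113 CPM (median 95.9), a change of -1.61 (SE 0.16). Atp5mc2 went from 267, 227, 174, 249 and 228 CPM to 139 to 171 CPM (median 144), a change of -0.65 (SE 0.11). Each passed the test and in each the 2 groups did not overlap, though for Atp5mc2 they came close (171 against 174 CPM). Atp5mc2 with the muscle covariate was at -0.14 (SE 0.15) and did not pass at day 3.

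The other injured tendon groups gave similar counts. At day 3 with the bursa removed, 86 of 90 members fell and 3 rose (Cox6a1, Cox8a and Atp5if1), beside 31.4% and 30.3% of all features, and the medians were -1.27 for nuclear and -1.43 for mitochondrial genome members. At day 14 with the bursa intact, 86 fell and Cox6a1 rose, beside 31.7% and 33.4%, with medians of -1.62 and -2.16. At day 14 with the bursa removed, 86 fell and Cox6a1 rose, beside 31.4% and 32.7%, with medians of -1.42 and -1.91. These 4 comparisons share the 5 control tendons, and leaving out any 1 library left 87 to 90 members called in each. Atp5if1 at day 3 with the bursa removed was at 80.8 to 98.6 CPM (median 94.9) and overlapped the control libraries, with a log2 change of 0.16 (SE 0.06, adjusted p 0.029, edgeR). That call was lost when any 1 of the 5 control tendons, or day-3 tendon 1, 2 or 6, was left out (edgeR adjusted p 0.058 to 0.15). With the muscle covariate 37 members were called at day 3 with the bursa removed (34 lower, 3 higher, beside 13.3% and 14.1% of all features) and 80 at day 14 (79 lower, 1 higher, beside 16.8% and 17.2%).

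Whether the bursa was kept or taken out made no difference that passed the test for any member. Removed against intact tendons gave 0 of 90 members and 0% of all features at each day (edgeR). At day 3, 14 members had an unadjusted p under 0.05 and the lowest adjusted p was 0.640, and at day 14 no member had an unadjusted p under 0.05. DESeq2 also called 0 members at both days, with 11 of all features called at day 3 and 3 at day 14. Most fitted differences were positive. At day 3, 86 of 90 members were higher with the bursa removed (median 0.27 for nuclear and 0.44 for mitochondrial genome members). At day 14, 89 of 90 were higher (0.20 and 0.32). The shares of all features with a positive difference or an unadjusted p under 0.05 are not given here. Whether members stand out in these counts is therefore not shown.

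The muscle markers summed to 3090 to 27755 CPM at day 3 and 5160 to 22707 CPM at day 14 with the bursa removed, against 2875 to 8758 and 2465 to 10227 CPM with the bursa intact. Without day-3 tendon 1 the day-3 medians were 0.10 for nuclear and 0.20 for mitochondrial genome members, and with the muscle covariate they were 0.09 and 0.23. Without day-14 tendon 4 with the bursa removed the day-14 medians were 0.08 and 0.14, and with the covariate 0.04 and 0.10. What sets these differences was not tested. Ndufa4l2 had the lowest change, from 56.4 to 76.5 CPM (median 65.1) with the bursa intact to 36.3 to 62.4 CPM (median 44.6) with it removed, a log2 difference of -0.51 (SE 0.22) that did not pass. In the authors' deposited table this gene was the 1 member called at day 3, with an adjusted p of 0.0056 and lower values after removal.

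From day 3 to day 14 the level of most members differed little, while a small set fell further. With the bursa intact 4 of 90 members fell and none rose, beside 21.2% and 20.8% of all features, and with the bursa removed 9 fell and none rose, beside 22% and 21.8%. Atp5mc2, Cox6b1, Cox8a and Ndufa10l1 were called in both comparisons. Atp5mc2 went from 139 to 171 CPM (median 144) at day 3 to 92.3 to 113 CPM (median 102) at day 14 with the bursa intact, without overlap (log2 change -0.53, SE 0.10, adjusted p 0.00012, edgeR). With the bursa removed it went from 149 to 229 CPM to 103 to 137 CPM, also without overlap, and changed by -0.57 (SE 0.10).

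The count with the bursa removed rested on single libraries. It ranged from 2 (without day-14 tendon 1 or 2) through 3 (without day-14 tendon 3 or day-3 tendon 1) and 5 (without day-14 tendon 5) to 24 (without day-14 tendon 4). With the bursa intact it was 2 without day-14 tendon 1 and 8 without day-14 tendon 5. All-feature shares for these fits are not given. With the muscle covariate 41 members fell with the bursa intact and 59 with it removed, beside 24.3% and 25% of all features lower, none rose, and the mitochondrial medians were -0.49 and -0.61.

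In bursa the picture depended on control bursae 1 and 2. Nuclear members held 2.16 and 1.77% of counts in these and 0.954, 0.772 and 0.847% in control bursae 3 to 5, and the mitochondrial genome held 48.9 and 53.5% against 13.3, 13.4 and 17%. Ndufs1 was at 869.6 and 598 CPM in the first pair and at 114, 87.2 and 96.6 CPM in the others. Mt-co1 was at 272641 and 305130 CPM against 30649, 29888 and 39026 CPM, and Mt-nd6 at 181 and 188 CPM against 9.40, 8.23 and 10.3 CPM. The brown adipocyte markers were high in the same pair, as given above, and white adipocyte markers summed to 20796 and 26959 CPM there and to 9090 to 11342 CPM in the other 3.

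Against all 5 control bursae, 68 of 89 members tested fell at day 3 and 1 rose, beside 23.5% and 21.7% of all features (edgeR), with medians of -1.26 for nuclear and -1.34 for mitochondrial genome members. Complex I had 32 of 33 nuclear members lower, complex II 4 of 4, complex III 7 of 8, complex IV 10 of 16 and complex V 10 of 15, while 5 of 13 mitochondrial genome members fell. Only 1 member, Atp5if1, had no overlap between control and day-3 bursae. Here too the share of all features without overlap is not given. Without control bursa 1 the count called was 13 and without control bursa 2 it was 15. Leaving out a day-3 bursa gave 39 (bursa 1), 44 (bursa 3), 37 (bursa 4) or 33 (bursa 6). The shares of all features called in these fits with 1 library left out are not given. Whether the lower counts are particular to members is therefore not shown.

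Some injured bursae held brown adipocyte markers too, with sums of 14.8 to 624 CPM at day 3 and 65.9 to 1868 CPM at day 14, against 50.4 to 77.8 CPM in control bursae 3 to 5. Muscle markers summed to 10.3 to 8999.6 CPM at day 3 and 1772 to 11781 CPM at day 14, against 612 to 2393 CPM in these 3. The part of these markers in the comparisons that follow was not tested.

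Without both control bursae 1 and 2, 3 members rose and 1 fell at day 3, beside 21.2% and 19.5% of all features, and the medians were 0.10 for nuclear and 0.48 for mitochondrial genome members. Atp5if1, Atp5mc2 and Ndufa1 were the ones that rose, and Atp5mc3 fell by 0.37 (SE 0.12, adjusted p 0.025, edgeR). Ndufs1 changed by -1.53 (SE 0.54) against all 5 control bursae and by 0.32 (SE 0.30) against the 3. Mt-nd6 changed by -2.41 (SE 0.78) against all 5 and by 0.69 (SE 0.44) against the 3. At day 14, 2 members (Cox4i2 and Mt-nd6) fell and none rose against all 5 control bursae, beside 6.81% and 9.04% of all features, with medians of -0.93 and -1.43. Against the 3, Cox4i2 and Ndufa4l2 fell and Ndufa1 rose, beside 6.09% of all features lower and 6.41% higher, and the medians were 0.38 and 0.36. The day-14 count was 0 without any 1 of day-14 bursae 1 to 5. It was 1 without control bursa 1 or 2 or day-14 bursa 6. It was 14 without control bursa 3 or 5 and 35 without control bursa 4. All-feature shares for these day-14 fits are not given.

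Atp5if1 changed in bursa under both sets of controls. It was at 27.6, 31.1, 35.0, 33.0 and 35.3 CPM in control bursae, at 48.1 to 58.1 CPM (median 49.9) at day 3 and at 33.3 to 39.5 CPM (median 35.1) at day 14. All 6 day-3 bursae were above all control and day-14 bursae. It rose by 0.72 (SE 0.08, adjusted p 3.0e-06, edgeR) at day 3, or by 0.65 (SE 0.08) without control bursae 1 and 2, and fell by 0.58 (SE 0.07) from day 3 to day 14. It was the 1 member of 89 called between day 14 and day 3, beside 11.9% of all features lower and 9.05% higher. Ndufa1, a small membrane subunit of complex I, was at 10.8 and 12.4 CPM in control bursae 1 and 2, at 2.40, 1.67 and 2.62 CPM in the other 3 and at 3.31 to 6.18 CPM (median 5.35) at day 3. Its log2 change was -0.16 (SE 0.45) against all 5 and 1.26 (SE 0.29, adjusted p 0.0034, edgeR) against the 3. Control bursae 1 and 2 held its highest control values, so the adjusted p against the 3 is no test of a rise.

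Control bursa and control tendon differed in which forms they held. Of 90 members, 5 were higher and 12 lower in control bursa, beside 28.6% and 21.6% of all features. Cox6a2 was at 199, 24.4, 17.5, 3.66 and 16.2 CPM in control bursae, all below the lowest control tendon (556 CPM), with a log2 difference of -3.73 (SE 0.83). Atp5mc1 was lower by 2.42 on the log2 scale (difference -2.42, SE 0.22), with bursae at 55.5, 25.4, 30.9, 24.8 and 28.2 CPM and no overlap with tendon. Cox6a1 (724, 738, 156, 131 and 153 CPM) and Cox8a (519.6, 541, 164, 119 and 149 CPM) were above every control tendon, by 2.02 (SE 0.30) and 2.19 (SE 0.26). Ndufv1, Sdha and Mt-nd6 were the other members called higher.

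Muscle markers were lower in control bursa too (13 of 14 tested). Without control bursae 1 and 2, 86 of 90 members were lower in bursa and 2 higher, beside 24.7% and 25.4% of all features, with medians of -1.46 for nuclear and -1.75 for mitochondrial genome members, and the 2 higher ones were Cox6a1 (0.57, SE 0.16) and Cox8a (1.06, SE 0.15). With the muscle covariate and all 5 control bursae the fitted balance turned, with 24 members higher and 5 lower in bursa. Of all features 20.7% were higher and 16.6% lower, and Cox6a2, at -0.13 (SE 0.21), did not pass. The covariate was 4.06 to 9.44 in control bursa, below the 10.9 to 11.6 of control tendon. The turn thus rests on a slope carried across that gap. Without control bursa 1 alone, 31 were lower and 2 higher, with no all-feature share given for that fit.

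The response to injury was compared between tissues as the bursa change minus the change of tendon with the bursa intact. At day 3, 5 members had a higher and 2 a lower value in bursa, beside 9.29% and 13.9% of all features, and at day 14 there were 8 and 2, beside 15% and 18.8%. Cox6a1 and Cox8a were the lower ones at both days, at -1.73 (SE 0.39) and -1.57 (SE 0.33) at day 3. Atp5mc1 had a difference of 1.97 (SE 0.28, adjusted p 1.9e-06, edgeR) at day 3: it fell by 2.09 in tendon and changed by -0.06 (SE 0.20) in bursa, where injured libraries were at 24.5 to 37.6 CPM. Atp5mc2, Atp5mc3 and Atp5pf, a stalk subunit, also differed at both days. The day-3 call of Atp5mc2 (0.64) was lost without control bursa 3, 4 or 5, day-3 bursa 5, or control tendon 1 or 4 (0.52 to 0.61, edgeR adjusted p 0.052 to 0.076).

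These differences again moved with the control bursae. The limit given above for fits without control bursae 1 and 2 holds here too. Without control bursae 1 and 2, 84 of 90 members had a higher value in bursa at day 3 and 83 at day 14, and none a lower one, beside 16.5% higher and 12.7% lower of all features at day 3 and 21.9% and 20.2% at day 14, with nuclear medians of 1.60 and 2.08 and mitochondrial medians of 2.39 and 2.64. Cox6a1 was then at -0.26 (SE 0.20) and Cox8a at -0.42 (SE 0.20) at day 3, and neither passed. Without control bursa 1 alone the counts were 13 at day 3 and 57 at day 14. The day-14 count was 35 without control bursa 2 alone, and 6 without control bursa 3 or 5 or control tendon 4. No all-feature shares are given for these fits. Atp5mc1 kept its direction and passed without the pair, at 2.30 (SE 0.29) at day 3 and 2.23 (SE 0.29) at day 14.

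Genes that work with the chain were also lower in day-3 tendon, where muscle markers fell as given above. At day 3 with the bursa intact, 32.3% of all features were lower and 32.2% higher. Of 22 tested partners of the chain outside the naming rule, 18 fell and 4 rose (median -1.37). This list, called carriers below, also holds coenzyme Q genes and Cyc1, a complex III subunit. Of 41 assembly factors 38 fell and none rose (median -0.77). Cytochrome c (Cycs) fell by 2.07 on the log2 scale (SE 0.21) and cytochrome c1 of complex III (Cyc1) by 1.93 (SE 0.19). The muscle adenine nucleotide carrier Slc25a4 fell by 2.55 (SE 0.26), while Slc25a5, the form of dividing cells, rose by 1.48 (SE 0.12). Coq8a, needed to make coenzyme Q, changed by -3.14 (SE 0.47).

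Among the tricarboxylic acid cycle genes, which feed NADH and succinate to the chain, 14 of 15 fell at day 3 with the bursa intact (median -1.36). Citrate synthase (Cs) fell by 0.80 (SE 0.11) on the log2 scale. Of 13 fatty acid oxidation genes 12 fell and 1 rose (median -1.40), with Acadm, the medium-chain dehydrogenase, at -2.67 (SE 0.28) and Cpt1b, the muscle carnitine transferase, at -2.03 (SE 0.37).

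The machinery of the mitochondrial genome had smaller median changes. At day 3 with the bursa intact 12 of 22 genes of its replication, transcription and RNA handling fell and 2 rose (median -0.46). Tfam, which packs and transcribes mitochondrial DNA, fell by 0.84 on the log2 scale (SE 0.12) at day 3 and by 1.35 (SE 0.12) at day 14. Of 67 mitochondrial ribosome genes 49 fell and 1 rose at day 3 (median -0.58). At day 14 with the bursa intact 61 fell and none rose (median -0.91), beside 31.7% of all features lower and 33.4% higher. From day 3 to day 14 a further 39 of 67 ribosome genes fell with the bursa intact and 44 with it removed, and none rose, beside 21.2% and 22% of all features lower.

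Regulators of mitochondrial gene programmes were split. At day 3 with the bursa intact 7 of 13 fell and 5 rose, beside 32.3% of all features lower and 32.2% higher. Ppargc1a, the coactivator PGC-1alpha, fell by 3.00 on the log2 scale (SE 0.41), Perm1, a muscle regulator of oxidative genes, by 5.42 (SE 0.67) and the receptor Esrra by 1.39 (SE 0.12), while Nrf1 rose by 0.26 (SE 0.08). At day 14 Ppargc1a was lower than control by 1.67 (log2 change -1.67, SE 0.39) and Nrf1, at 0.07 (SE 0.08), did not pass.

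With the muscle covariate, a fit of these lists chosen after seeing the data, 9 carriers fell and 2 rose at day 3 with the bursa intact, beside 9.64% of all features lower and 12% higher (edgeR). In the same fit 7 assembly factors, 10 cycle genes, 4 fatty acid oxidation genes, 4 ribosome genes and 2 regulators fell and none of these lists had a gene that rose. Of the 22 genes of mitochondrial genome replication, transcription and RNA handling 0 passed, and 3 had an unadjusted p under 0.05. The medians were -0.44 for carriers, -0.63 for the cycle and -0.17 for the ribosome. The lists at day 14 were not refitted with the covariate.

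In bursa at day 3 against all 5 controls, beside 23.5% of all features lower and 21.7% higher, 14 of 15 tricarboxylic acid cycle genes and 12 of 13 fatty acid oxidation genes fell and none rose, and 24 of 41 assembly factors and 24 of 67 mitochondrial ribosome genes fell and none rose. Control bursa was above control tendon for 8 of 15 cycle genes and 11 of 13 fatty acid oxidation genes, and none was lower. Of all features 28.6% were higher and 21.6% lower in control bursa. Cs differed by 1.67 (SE 0.32) and Hadh, a dehydrogenase of fatty acid oxidation, by 2.38 (SE 0.39). Without control bursae 1 and 2 the day-3 medians were 0.18 for the cycle, 0.19 for fatty acid oxidation, -0.03 for assembly factors and 0.11 for the ribosome (edgeR, chosen after seeing the data). In that fit 1 cycle gene and 3 assembly factors fell, 3 assembly factors and 5 ribosome genes rose, and 0 of 13 fatty acid oxidation genes passed, with 0 at an unadjusted p under 0.05. The day-14 and control lists were not refitted without this pair.

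Counts could not be assigned to 7 members. Cox6c-ps1, Cox7b2, Cox8c and Ndufs6 had deposited means at or near 0. For Atp5f1c, Atp5pb and Ndufv3 the authors' deposited tables give log2 fold changes, signed here as injured over control, of -1.76, -1.32 and -1.81 in tendon at day 3 with the bursa intact, and of -1.75, -1.51 and -1.86 at day 14. In bursa at day 3 the authors' deposited table gives -1.22, -1.16 and -1.61 for these 3, with adjusted p of 0.018, 0.046 and 0.012. Over all members with an adjusted p, the authors' deposited tables call 2 higher and 89 lower at day 3 and 1 higher and 89 lower at day 14 in tendon with the bursa intact. For day 14 against day 3 they call 1 higher and 10 lower with the bursa intact, and 11 higher and 5 lower in bursa. The shares of all genes called in the authors' deposited tables are not given here. Whether members stand out in these counts is not shown.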

How the data were processed

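Members, gene lists and tests were chosen with earlier results of these data known. RNA of 46 rat libraries was sequenced after poly(A) selection. Per the submitters' processing notes, reads were handled with bcl2fastq 2.19, kallisto 0.44.0 and DESeq2 (version not given). The genome build and transcript set were not given in the sources at hand. The authors deposited estimated counts per transcript for all libraries in 1 table, which were rounded to whole numbers for testing. Their 11 comparison tables give, per the file headers, a mean normalized count per gene (a signal), a log2 fold change with its standard error, a Wald statistic (a score), a p-value and an adjusted p-value, all made by the authors.

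The count table names transcripts and the comparison tables name genes, so names were joined by value: a symbol was given to 1 transcript (within 1%, or 3% for clear cases) or to the sum of 2 (within 0.5%, and within 1% for 1 member) whose scaled means equalled all 11 deposited means. This named 13197 symbols and 87.4% of counts (85.5 to 93.8% per library). The same search gave names to 14 decoys, 13 of them at the 3% tolerance, at which 345 symbols were named, among them Atp5mc2 (1.96% off), Mt-atp8, Mt-nd3, Mt-nd4l and Ndufa3. After summing, 30200 features remained.

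Counts were tested with edgeR 4.0.16 (R 4.3.3, limma 3.58.1): TMM scaling, filterByExpr and quasi-likelihood tests, with Benjamini-Hochberg adjustment over all features and a threshold of 0.05, in 1 fit of 29 tendon libraries, 1 of 17 bursa libraries and 1 of all 46 for contrasts across tissues. The groups in a fit share its estimate of spread. CPM are TMM-scaled over all libraries, and log2 values add 0.5 to CPM. Shares use the raw total of each library, 12.4 to 69.9 M counts (M, 1e+06). Alternatives were DESeq2 1.42.0, its size factors in edgeR, no filter, scaling without the mitochondrial genome, a muscle covariate, the replicate block, only the 2 groups compared, control bursae 1 and 2 left out, and each library left out in turn. On simulated counts with planted changes the day-3 intact tendon comparison recovered 79 of 100 changes of 2-fold and 94 of 100 of 4-fold, and the day-3 bursa comparison 61 and 93.

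Tendons with the bursa removed and intact share replicate numbers in the labels. Same-numbered tendons deviated together (r of 0.11 to 0.49 at day 3 and 0.16 to 0.42 at day 14, each over genes). The closest match had another number for day-3 tendons 3 and 4 and for day-14 tendon 2, so pairing by number is uncertain. It was used only in the replicate block, an alternative, and the main tests were unpaired. Genes named are all mitochondrial genome members, tissue forms and their partners, core subunits, in each comparison the 3 highest and 3 lowest members by log2 fold change (average level 1 CPM or more), members called against the majority, up to 2 genes of each pathway list and 7 fixed single genes. Atp5mc2, Atp5mc3, Cox7a2l, Ndufa10l1 and the values of Slc25a5 in injured tendon were chosen after their values were seen. Promoter sequences are from RefSeq (GRCr8). Figures were drawn with matplotlib 3.10.9, and tables made with Python 3.11.15, numpy 2.4.6 and pandas 2.3.3.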

Additional observations from a re-analysis of the deposited data

Results flagged for a closer look

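A library was called far from its group when its gap to the next library was large for the range of the group. Of 104 groups of values checked, 10 held such a library. At 1 in 20, about 5.2 would be expected by chance if the groups were independent. They share libraries, and all 10 came from day-3 tendon 1 and day-14 tendon 4 with the bursa removed and control bursa 1. The 10 and the 5.2 can therefore not be compared. Day-3 tendon 1 with the bursa removed was the highest of its group in mitochondrial share (25.4%, next 15.5%), Cox6a2 (472 CPM, next 181), Atp5mc1 (98.7 CPM, next 53.0), Ndufs1 (152 CPM, next 97.4) and Mt-nd6 (22.7 CPM, next 13.9). Muscle markers were also highest in this library, and their part in these values was not tested within the group. Day-14 tendon 4 with the bursa removed was the highest of its group in Cox6a2 (325 CPM, next 137), Atp5mc1 (71.3 CPM, next 46.7) and the log2 ratio of Cox6a2 to Cox6a1 (1.42, next 0.04). Control bursa 1 was the highest of its group in Cox6a2 (199 CPM, next 24.4) and Atp5mc1 (55.5 CPM, next 30.9), and it held 23615 CPM of muscle markers against 612 to 3070 CPM in the other 4 control bursae.

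The response to injury differed between bursa and tendon with the bursa intact for 7 members at day 3 and 10 at day 14 (edgeR interaction, bursa change minus tendon change, on the log2 scale). At day 3 the differences were 1.97 for Atp5mc1, 1.03 for Atp5pf, 0.93 for Atp5mc3, 0.64 for Atp5mc2, 0.62 for Atp5if1, -1.57 for Cox8a and -1.73 for Cox6a1. At day 14 they were 1.93 for Atp5mc1, 1.47 for Ndufa1, 1.36 for Atp5mc3, 1.3 for Ndufs7, 1.14 for Atp5pf, 1.06 for Atp5f1a, 0.95 for Ndufb3, 0.88 for Atp5mc2, -1.08 for Cox8a and -1.37 for Cox6a1. Those of Atp5f1a and Ndufb3 did not pass with DESeq2 size factors in edgeR, with scaling without the mitochondrial genome, with no filter or with the muscle covariate. With 1 of 22 libraries left out, the calls of Atp5f1a and Ndufb3 were lost in 13 fits each (edgeR adjusted p up to 0.10 and 0.11), that of Ndufs7 in 6 (up to 0.067), that of Ndufa1 in 3 (up to 0.059), that of Cox8a at day 14 in 1 (0.052, without control bursa 2) and that of Atp5mc2 at day 3 in 6 (up to 0.076). Ndufs7 was lost without control bursa 3, 4 or 5, day-14 bursa 2, control tendon 4 or day-14 tendon 6 with the bursa intact, and Ndufa1 without control bursa 3 or 5 or control tendon 4. Atp5f1a and Ndufb3 were lost without control bursae 3 to 5, day-14 bursae 1, 2 or 6, control tendons 1, 4 or 5, or day-14 tendons 1, 2, 3 or 6 with the bursa intact, each taken alone. These differences rest on all 5 control bursae, and the fit without bursae 1 and 2 was chosen after their values were seen. Without bursae 1 and 2 the day-3 values were 1.47 for Atp5pf, 1.26 for Atp5mc3, 1.29 for Atp5mc2 and 0.63 for Atp5if1. The day-14 values were 2.91 for Ndufa1, 1.65 for Atp5mc3, 2.68 for Ndufs7, 1.55 for Atp5pf, 2.43 for Atp5f1a, 1.99 for Ndufb3 and 1.50 for Atp5mc2, and all of these passed.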

How the results depend on the processing

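The 4 comparisons of injured with control tendon kept their direction under each alternative, and their counts of members called ranged from 87 to 89, 88 to 90, 87 to 88 and 87 to 88 with 1 library left out (day 3 intact and removed, day 14 intact and removed). With the muscle covariate the day-3 counts were 40 and 37, those of day 14 against day 3 were 41 (bursa intact) and 59 (removed), that of the day-14 tissue difference 6, and control bursa against control tendon turned to mostly higher, with 29. With no filter on low counts 5 members were called for day 14 against day 3 with the bursa removed and 0 for day-14 bursa, where DESeq2 called 18. Without control bursae 1 and 2 the day-3 bursa count was 4 and turned to mostly higher, control bursa against control tendon gave 88, and the tissue differences gave 84 and 83. Control bursa against control tendon gave 10 with only these groups fitted and 9 with the replicate block, where numbers do not pair the samples (r from -0.19 to 0.26). For removed against intact tendon the replicate block gave 0 at both days. Of the single named genes refitted with this block, 4 results stayed the same and 1 lost its call. The lost call is from control bursa against control tendon, as removal had none to lose.

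With 1 library left out, counts ranged from 2 to 8 and from 2 to 24 for day 14 against day 3 (bursa intact, removed), 13 to 80 and 0 to 35 for bursa at day 3 and day 14, 1 to 2 for bursa at day 14 against day 3 (2 without day-3 bursa 5), 16 to 33 for control bursa against control tendon, 6 to 13 and 6 to 57 for the tissue differences, and 0 throughout for removal. Nuclear shares of counts outside the mitochondrial genome were 2.01% (control tendon), 0.784% (day-3 intact tendon), 2.21% (control bursa), 0.932% (day-3 bursa) and 1.21% (day-14 bursa). Control bursae 1 and 2 averaged 4.01% and control bursae 3 to 5 averaged 1.00%, so the control bursa mean describes neither set. Single genes that turned were Cox6a2 at day 3 with the muscle covariate (0.32) and, without control bursae 1 and 2, Ndufs1 (0.32), Mt-nd6 (0.69) and Ndufa1 (1.26) in day-3 bursa and the day-14 tissue differences of Cox6a1 (0.062) and Cox8a (0.033). For the pathway lists, in fits chosen after seeing the data, the counts called in day-3 tendon with the muscle covariate were 7 (assembly factors), 4 (fatty acid oxidation), 0 (mitochondrial genome expression), 4 (ribosome), 2 (regulators) and 11 (carriers). In day-3 bursa without control bursae 1 and 2 they were 6 (assembly factors), 0 (fatty acid oxidation) and 1 (cycle), and turned to higher for 4 (mitochondrial genome expression), 5 (ribosome), 1 (regulators) and 1 (carriers). The cause of these changes was not tested. For alternative fits other than the muscle covariate and those without control bursae 1 and 2, shares of all features called are not given. Whether a changed count is particular to members is not shown there. Members with low counts included Cox7a1 and Cox6b2, with average log2 CPM of -0.26 and 0.98 in the tendon fit. Ndufa1 was at 2.67 and Mt-nd6 at 3.59. Whether depth limits their results was not tested.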
